A study of Mus musculus with 6 samples.

Results

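The genes described here encode the subunits of oxidative phosphorylation in mouse embryonic stem cells (ESC) with and without Oct1, before and during differentiation towards mesoderm. They were chosen by symbol, as all genes named Nduf with a letter a, b, c, s or v and a number, Sdha to Sdhd, Uqcr, Cox4 to Cox8, Atp5 or the mitochondrial mt-Nd, mt-Co, mt-Cytb and mt-Atp genes, with pseudogene names left out. The rule found 97 of the 31053 genes of the count tables. Of these, 84 are nuclear genes (37 of complex I, 4 of complex II, 8 of complex III, 18 of complex IV and 17 of complex V) and 13 are genes of the mitochondrial DNA (7 of complex I, 1 of complex III, 3 of complex IV and 2 of complex V). Atp5s, Cox7a2l and Ndufa4 came in by name, although Atp5s is coupling factor B and not a core subunit, Cox7a2l a factor of respiratory supercomplexes, and Ndufa4 has been reassigned to complex IV.

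Single cells of 6 groups were sequenced with 1 library each, as Oct1 cKO and parental ESC, Oct1 cKO and parental cells at day 3, and Oct1 cKO and parental cells at day 6. Oct1, a transcription factor of the POU family, is the product of Pou2f1, and cKO stands for conditional knockout, with neither the Cre driver nor the number of clones given in the sources used here. Both genotypes were treated alike, on 0.1% gelatin in N2B27 medium with Bmp4 for 2 days and afterwards in a DMEM-based medium with Rspo3 and the BMP receptor inhibitor LDN-193189 for 4 days. By the series title, the genotype comparison asks what Oct1 does together with Smad factors in mesoderm specification. With 1 library per group no test between groups was possible, and every interval below covers counting error only.

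Oxidative phosphorylation is carried out by 4 respiratory complexes, which pass electrons to oxygen and pump protons across the inner mitochondrial membrane, and by complex V, the ATP synthase, which uses the proton gradient to make ATP. Complexes I, III, IV and V are built from proteins of both genomes, whereas complex II is encoded wholly in the nucleus. Pluripotent cells are known for relying strongly on glycolysis, and mitochondria are known to mature as cells differentiate.

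Barcodes showing 1000 genes or more, and no more than 10% of UMIs (unique molecular identifiers) from mitochondrial genes, were taken as cells, which left 530 cKO and 1396 parental ESC, 1026 cKO and 948 parental cells at day 3, and 1650 cKO and 1546 parental cells at day 6. The kept cells held between 38935937 and 84128627 UMIs per library, with medians of 30925 to 82544 UMIs per cell, and any pair of libraries shared at most 2 cell barcodes. Pou2f1 stood at 21.5, 12.6 and 16.0 CPM (UMIs of a gene per 1000000 UMIs of the library) in cKO ESC, day 3 and day 6 cells, against 30.1, 28.3 and 30.9 CPM in parental cells, and whether the 5′ tag lies in the deleted part is not given. Summed pluripotency markers (6 genes) were 6221, 1093 and 88.7 CPM in cKO cells and 5553, 1225 and 227 CPM in parental cells over the 3 stages, so the ESC label fitted its markers. Fibroblast markers (9 genes) summed to 26.4 CPM in cKO ESC against 843 CPM in parental ESC, and 7 epithelial genes to 5496 CPM in cKO against 2268 CPM in parental cells at day 6. The titles of the ESC libraries carry another prefix than those of days 3 and 6, so what the prefix stands for and the step out of the ESC stage cannot be told apart.

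The promoters of the nuclear members held sequence features that the choice by name did not use. RefSeq (GRCm38.p6) gave a promoter, from 250 bases before to 50 after the gene start, for 66 of the 84 nuclear members. The binding motif of NRF1, a factor known for controlling nuclear genes of respiration, was searched on both strands as GCGCA, any 1 base and GCGC, and stood in 16 of the 66 promoters (24.2%), against 4.78% of 27025 promoters of the table. The YY1 motif AAGATGGCG stood in 6 promoters (9.09% against 1.49%), the ETS motif CCGGAAGT in 5 (7.58% against 4.00%) and the ERR motif TCAAGGTCA in 2 (3.03% against 0.407%). The octamer ATGCAAAT, the sequence that Oct1 is known to bind, stood in 1 member promoter, that of the complex I subunit Ndufs4 (1.52% against 1.75%). The 4 promoters shown first carry 1 to 3 copies of the NRF1 motif, in capitals, in 1 gene each of complexes II, I, IV and V, and the last carries the octamer, in capitals as its reverse complement. Each is the 200 bases just before the RefSeq start, written 5′ to 3′ along the gene, which lies on the minus strand in all 5 cases, at chr13:74350241-74350440 (Sdha), chr16:37654369-37654568 (Ndufb4), chr5:115348959-115349158 (Cox6a1), chr15:102671048-102671247 (Atp5g2) and chr13:114388095-114388294 (Ndufs4).
Sdha: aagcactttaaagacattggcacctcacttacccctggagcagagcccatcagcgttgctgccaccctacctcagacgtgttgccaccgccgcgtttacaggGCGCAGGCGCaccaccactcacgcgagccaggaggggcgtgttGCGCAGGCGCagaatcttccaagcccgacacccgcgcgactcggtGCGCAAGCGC
Ndufb4: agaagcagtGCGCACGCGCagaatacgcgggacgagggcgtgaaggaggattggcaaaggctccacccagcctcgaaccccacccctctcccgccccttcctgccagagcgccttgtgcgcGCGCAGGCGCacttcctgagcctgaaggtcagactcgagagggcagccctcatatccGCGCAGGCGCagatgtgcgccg
Cox6a1: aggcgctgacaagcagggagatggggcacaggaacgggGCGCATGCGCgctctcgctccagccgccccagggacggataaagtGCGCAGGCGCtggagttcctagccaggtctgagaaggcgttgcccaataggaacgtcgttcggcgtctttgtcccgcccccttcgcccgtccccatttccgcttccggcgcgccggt
Atp5g2: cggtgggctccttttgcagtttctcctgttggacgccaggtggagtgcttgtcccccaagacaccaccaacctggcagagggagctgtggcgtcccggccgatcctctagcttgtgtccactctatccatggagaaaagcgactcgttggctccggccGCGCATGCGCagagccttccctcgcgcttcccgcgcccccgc
Ndufs4: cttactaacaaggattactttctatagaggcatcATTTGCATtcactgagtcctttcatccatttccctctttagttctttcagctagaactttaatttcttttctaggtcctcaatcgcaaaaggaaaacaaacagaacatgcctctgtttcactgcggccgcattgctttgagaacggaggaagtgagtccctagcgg
The NRF1 matches of Sdha begin 98, 55 and 10 bases before the start, and the octamer of Ndufs4 begins 166 bases before it. A match is a description of the sequence and not a measured binding site. Ndufs4, an accessory subunit of the matrix arm of complex I, had 180, 242 and 214 CPM in cKO ESC, day 3 and day 6 cells, against 161, 220 and 224 CPM in parental cells. Its log2 ratios of cKO over parental were 0.16, 0.14 and −0.06, so the only one of the 66 with an octamer in this window stayed within 1.12-fold at every stage. Members with an NRF1 motif had a median log2 ratio of 0.11, 0.08 and 0.10 over the 3 stages (15 genes compared), and those without had −0.02, 0.11 and 0.16 (47 or 48 genes).

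The 84 nuclear genes together held 2.96%, 2.62% and 2.88% of all UMIs in cKO ESC, day 3 and day 6 cells, against 2.84%, 2.52% and 2.59% in parental cells. As log2 ratios of cKO over parental, these sums were 0.06, 0.06 and 0.16. The median log2 ratio of single nuclear members was 0.01 at the ESC stage, 0.09 at day 3 and 0.11 at day 6, beside medians of −0.01, −0.05 and −0.01 for all genes compared. With TMM factors the day 3 median was 0.19, beside 0.06 for all genes. A gene was compared where the higher library held at least 20 CPM, which left 76, 75 and 77 nuclear members and all 13 mitochondrial ones.

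**Figure D1:**
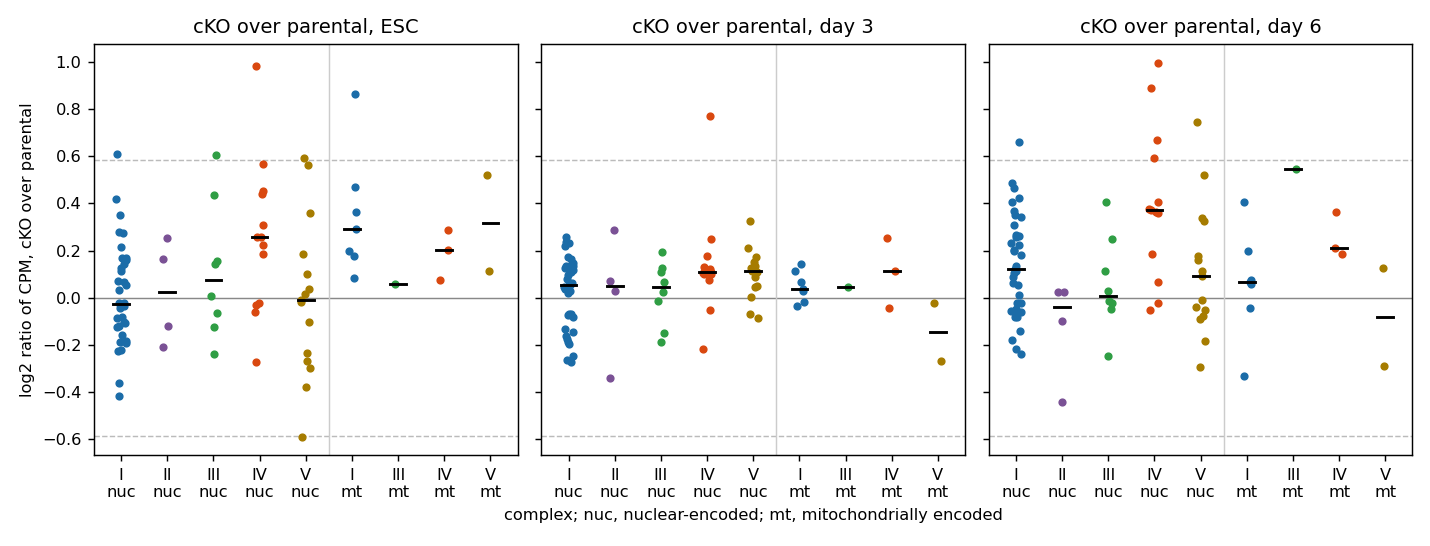
Log2 ratio of CPM, cKO over parental, for each subunit gene that reached 20 CPM in either library (points), by complex and encoding genome, with the median as a black bar, the value 0 as a solid line and 1.5-fold as dashed lines. Most points lie within 1.5-fold, and at day 6 the nuclear complex IV genes have a median of 0.37, above the 0.12 of nuclear complex I.

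A member was called different at 1.5-fold or more. At the ESC stage 4 nuclear members and 1 mitochondrial member were higher in cKO cells and 1 nuclear member was lower, where 3.48% of all 5340 genes were higher and 3.28% lower. At day 3 there was 1 higher and 0 lower, where 1.22% of all genes were higher and 1.61% lower. At day 6 there were 6 higher and 0 lower, where 12.1% were higher and 10.7% lower, so at this stage the share of members called fell below that of all genes. With a limit of 2-fold, 0 members were called in each of the 3 genotype comparisons, where 2.17% of all genes were called in ESC, 0.505% at day 3 and 9.20% at day 6.

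In ESC, the higher members were short accessory subunits and 1 mitochondrial gene. Uqcrb, a small subunit of complex III that binds ubiquinone, had 780.2 CPM in cKO against 512.9 CPM in parental ESC, a log2 ratio of 0.61 (0.58 to 0.63). Ndufa3, a membrane-arm subunit of complex I, had 140.2 CPM against 91.8 CPM, or 0.61 (0.56 to 0.66). Atp5k, the e subunit of ATP synthase, which takes part in dimers of the enzyme, had 358.9 CPM against 238 CPM, or 0.59 (0.56 to 0.62). Cox7a1, the heart and muscle isoform of a complex IV subunit, had 20.1 CPM in cKO and 10.2 CPM in parental ESC, or 0.98 (0.84 to 1.13), and entered the comparison only through its level in cKO cells, so it had to differ. The 1 lower member was Atp5g1, which encodes subunit c of the proton-driven ring of ATP synthase, with 729.3 CPM in cKO against 1097 CPM in parental ESC, or −0.59 (−0.61 to −0.57). Atp5g1 lies on chromosome 11, where 460 other genes compared had a median log2 ratio of −0.27 and all 4 members (Uqcr10, Uqcrq, Atp5g1 and Atp5h) were below 0. The part of this chromosome-wide difference in the result for Atp5g1 was not tested.

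By complex, nuclear genes of complex IV stood highest in cKO ESC, with a summed log2 ratio of 0.19, and those of complex III at 0.17. Complex I, II and V genes summed to 0.00, 0.05 and −0.04. In ESC with markers of pluripotency alone (407 cKO and 1099 parental cells), complexes III and IV gave 0.18 and 0.20. Cells with fibroblast markers numbered 1 in cKO and 89 in parental ESC.

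At day 3 the genotype comparison held the fewest calls, and nuclear ratios ran from −0.34 for Sdhc to 0.77 for Cox6b2. Cox6b2, the testis isoform of complex IV subunit 6B, had 32.4 CPM in cKO against 19.0 CPM in parental cells, or 0.77 (0.68 to 0.86), and was compared only through its level in cKO cells. Sdhc, a membrane anchor of complex II encoded on chromosome 1, had 61.9 CPM in cKO and 78.3 CPM in parental cells. The 6 members on chromosome 1 were all below 0 at day 3 (median −0.21), beside −0.29 for the 292 other genes of that chromosome, and the part of this chromosome-wide difference in the members' values was not tested. Chromosomes 6, 8 and 11 also had medians below 0 in the other genes at this stage (−0.29, −0.31 and −0.20), with member medians of −0.23, −0.07 and −0.12. At day 6 the other genes of chromosomes 1, 6, 8 and 11 had medians of −0.08, −0.19, −0.21 and −0.31. The member medians there were −0.20, 0.10, 0.14 and −0.13.

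At day 6 the members that differed were mostly of complex IV, the oxidase that hands electrons to oxygen. Its nuclear genes summed to 7480 CPM in cKO against 6151 CPM in parental cells, a log2 ratio of 0.28, and 11 of 13 compared were above 0. Cox6c, a subunit at the rim of the complex, had 781 CPM in cKO against 517.2 CPM in parental cells, or 0.59 (0.57 to 0.61). Cox6a1, the liver-type isoform of subunit 6A, which has a pair of NRF1 motifs in the promoter shown above, had 463.9 CPM against 292 CPM, or 0.67 (0.64 to 0.69). Outside complex IV, Atp5l, the g subunit of ATP synthase, had 519.2 CPM against 309.7 CPM, or 0.75 (0.72 to 0.77), with the reservation that 71.6% of its 91-base stretches also occur in the transcript of a processed pseudogene.

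The 3 remaining calls at day 6 were genes with uneven levels among cell types. Cox7a1 had 30.01 CPM in cKO and 15.04 CPM in parental cells, or 0.996 (0.89 to 1.11). Cox6b2 had 104.7 CPM against 56.6 CPM, or 0.89 (0.83 to 0.94). Ndufa4l2, a hypoxia-induced relative of Ndufa4, had 21.6 CPM against 13.7 CPM, or 0.66 (0.54 to 0.78). Cox7a1 and Ndufa4l2 reached 20 CPM in cKO cells alone and so had to differ.

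The libraries differed in their mixture of cells at day 6. Cells were thinned to 3000 UMIs and given to a class when they had UMIs of at least 2 genes of that marker list and of under 2 genes of every other. At day 6, 155 cKO and 98 parental cells had fewer UMIs and were left out. The percentages of this paragraph are shares of the remaining cells. Epithelial markers marked 1057 cKO cells (70.7%) against 337 parental cells (23.3%), and neural markers marked 434 parental cells (30.0%) and fewer than 50 cKO cells. Within cells with epithelial markers, Cox7a1 had 36.0 CPM in cKO and 34.7 CPM in parental cells, a log2 ratio of 0.05 (−0.09 to 0.19). Ndufa4l2 had 25.3 CPM and 26.0 CPM, or −0.04 (−0.20 to 0.12). Cox6b2 had 112 CPM and 101 CPM, or 0.14 (0.06 to 0.22), whereas in cells with somite markers it had 69.4 CPM in cKO and 36.4 CPM in parental cells, or 0.93 (0.66 to 1.21).

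**Figure D2:**
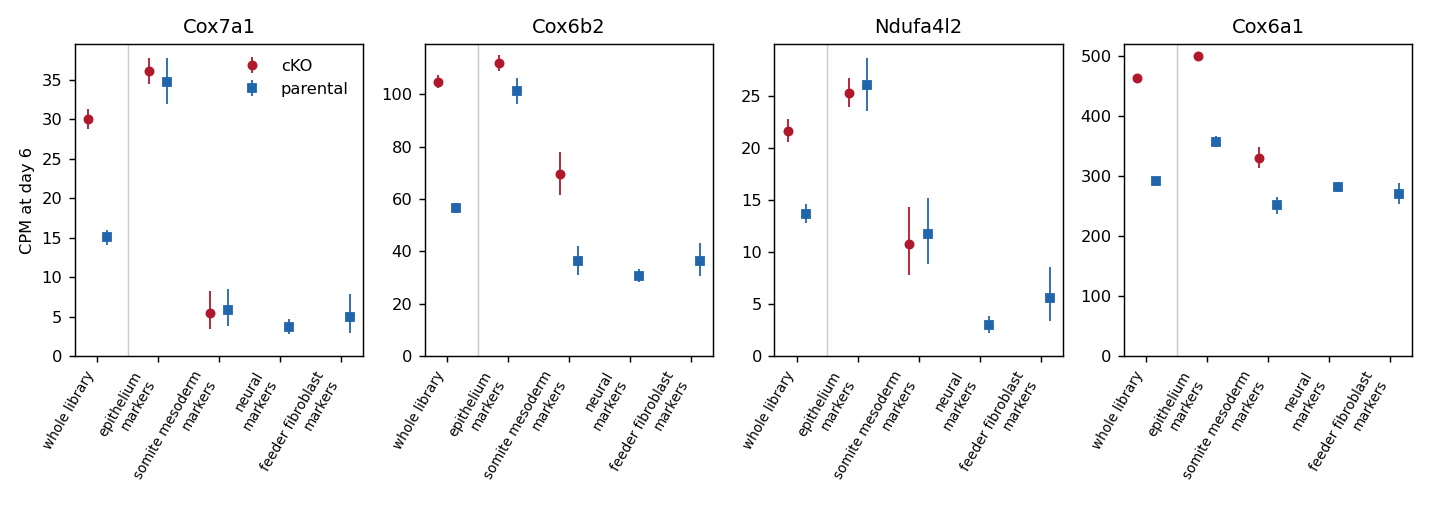
CPM of 4 complex I and IV genes at day 6 in the whole library and in cells with markers of 1 class, for cKO (circles) and parental (squares), with exact Poisson 95% intervals; classes with fewer than 50 cells in a library are not drawn. Cox7a1 and Ndufa4l2 differ in the whole libraries and have overlapping intervals within epithelial-marker cells, whereas Cox6a1 stays higher in cKO cells, at 501 CPM against 358 CPM.

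In the other classes of the parental day 6 library these genes were lower, and Cox7a1 stood at 5.9 CPM in cells with somite markers against 34.7 CPM with epithelial markers. Cox6a1 and Atp5l were above 0 in both classes, though under the 1.5-fold limit. Cox6a1 gave 0.48 (0.44 to 0.53) in epithelial-marker cells and 0.40 (0.28 to 0.51) in the 114 cKO and 93 parental cells with somite markers. Atp5l gave 0.46 (0.42 to 0.50) and 0.35 (0.25 to 0.46). Summed nuclear complex IV genes gave 0.19 in both classes, against 0.28 in the whole libraries.

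Ndufa4l2 differed more before day 6, at levels under the 20 CPM limit. It had 8.4 and 17.8 CPM in cKO ESC and day 3 cells, against 1.6 and 5.3 CPM in parental cells. These are 5.21-fold (log2 2.38, 2.08 to 2.69) and 3.33-fold (1.74, 1.58 to 1.90) higher levels in cKO cells. In cells with pluripotency markers the log2 ratios were 2.49 and 1.47.

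Mitochondrially encoded genes, which are cut out of long transcripts of both strands of the mitochondrial DNA, were a little higher in cKO cells. Their sum was 62178, 40167 and 43846 CPM in cKO ESC, day 3 and day 6 cells, against 55001, 38144 and 37362 CPM in parental cells, and the log2 ratios were 0.18, 0.07 and 0.23. All 13 were above 0 in ESC, 8 at day 3 and 10 at day 6. At day 6 the mitochondrial sum gave 0.13 in cells with epithelial markers and 0.29 in cells with somite markers. These sums were bounded by the 10% ceiling of the cell filter, which left out 76 cKO and 198 parental ESC barcodes, 41 and 58 at day 3, and 120 and 178 at day 6. With a ceiling of 5% the ESC ratio turned to −0.15. That ceiling lies below the median share per cell of the kept ESC, 6.11% in cKO and 5.34% in parental cells. It kept 124 of 530 cKO and 541 of 1396 parental ESC, of which 62 and 105 were under 1%.

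**Figure D3:**
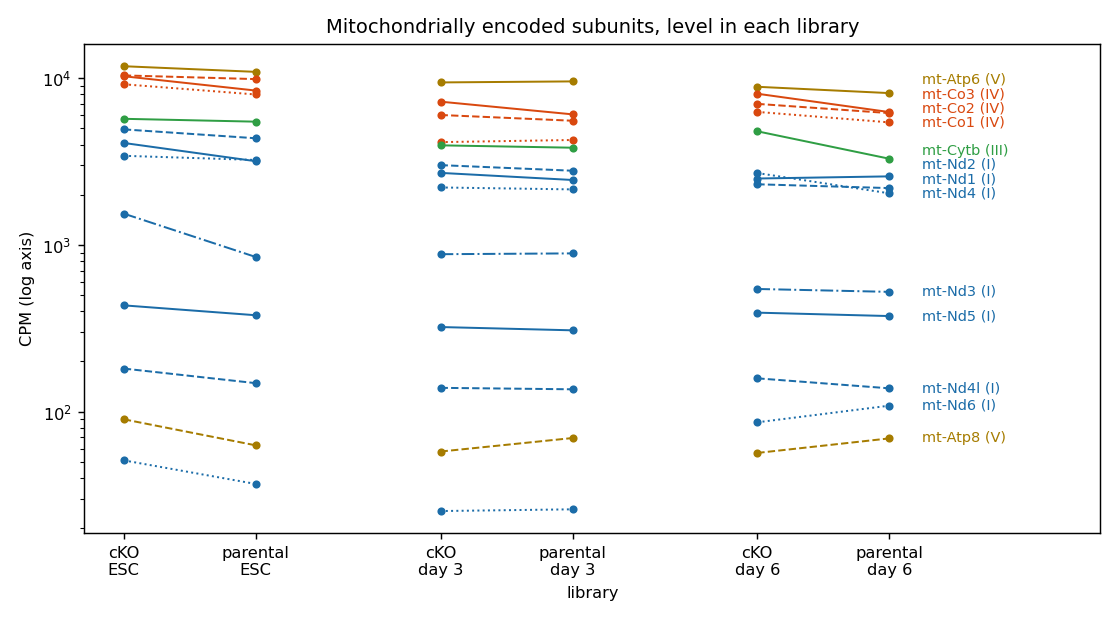
CPM on a log axis of the 13 mitochondrially encoded subunit genes in the 6 libraries, with cKO left of parental at each stage and the complex in parentheses. The levels of most genes are lower at day 3 than in ESC. All genes but mt-Nd6, which rises at day 6, have their highest value in cKO ESC.

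The mt-Nd3 gene, for a small core subunit of complex I, was the 1 mitochondrial call between genotypes, with 1542 CPM in cKO against 847 CPM in parental ESC, or 0.86 (0.85 to 0.88). At days 3 and 6 it had 880 and 545 CPM in cKO cells and 890.3 and 523 CPM in parental cells, with ratios of −0.02 and 0.06. At day 6 mt-Cytb, the core of complex III, had 4808 CPM in cKO and 3292 CPM in parental cells, or 0.55 (0.54 to 0.55), and 0.45 in epithelial-marker and 0.71 in somite-marker cells. For mt-Nd4, a proton-pumping subunit of complex I, the day 6 levels were 2702 CPM and 2042 CPM, or 0.40 (0.39 to 0.41). The 3 core subunits of complex IV gave 0.21 (mt-Co1), 0.18 (mt-Co2) and 0.37 (mt-Co3) at day 6. Over 97% of the 91-base stretches of mt-Co2, mt-Co3, mt-Atp6, mt-Nd3 and mt-Nd4l, and 61.0% of those of mt-Nd4, also occur in annotated nuclear copies that are not genes of the count tables, and how reads with both origins were counted is not given in the sources used here. The reading frames of mt-Atp8 and mt-Atp6, and of mt-Nd4l and mt-Nd4, overlap, and mt-Nd6 lies antisense beside mt-Nd5, so their counts are uncertain.

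The steps of differentiation are given for each genotype from its own pair of libraries. From the ESC stage to day 3 the mitochondrial sum had a log2 ratio of −0.63 in cKO and −0.53 in parental cells (day 3 over ESC). The size of this value moved with the cell filter, to −0.084 in cKO cells with a ceiling of 5%, and to −1.09 in cKO and −0.98 in parental cells of 20000 to 60000 UMIs. All 13 genes were below 0 in cKO and 11 in parental cells, and 8 and 4 fell by at least 1.5-fold, where 20.2% and 15.7% of all genes did. The 4 of the parental cells, mt-Co1, mt-Co2, mt-Nd1 and mt-Nd4, were also called in cKO cells. For mt-Co1, the catalytic subunit of complex IV, day 3 cells had 4140 CPM in cKO and 4264 CPM in parental cells, against 9204 and 7996 CPM in ESC of these genotypes.

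**Figure D4:**
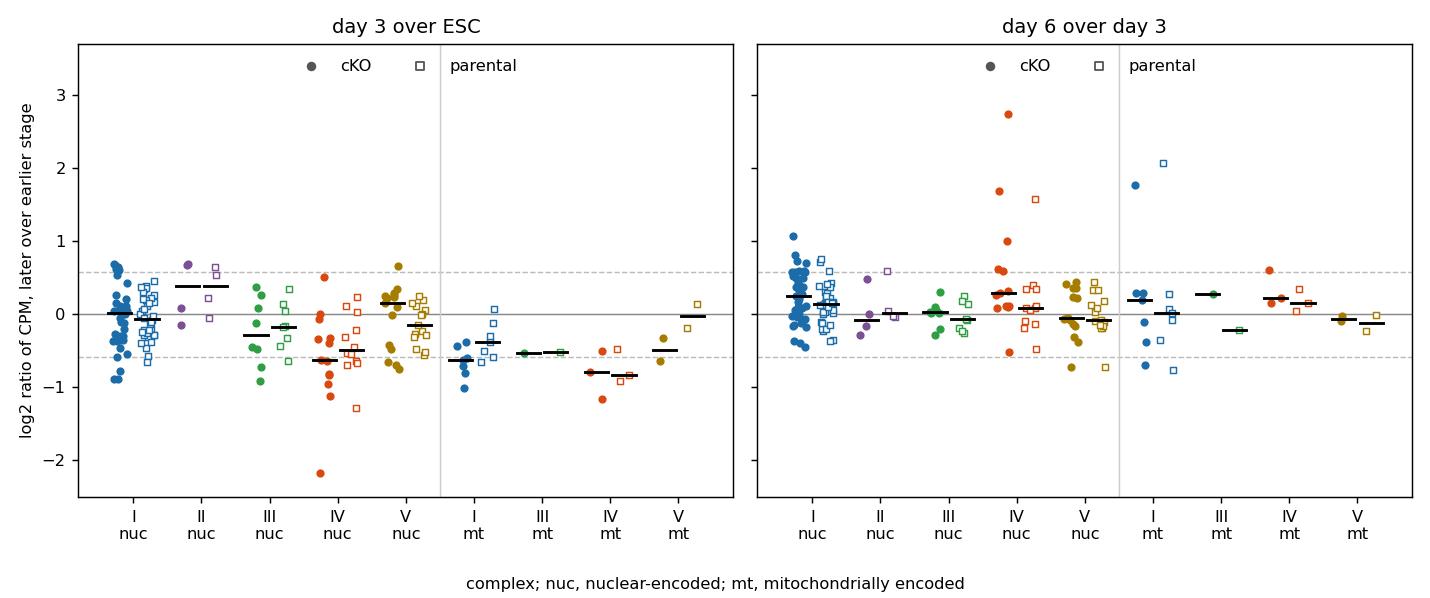
Log2 ratio of CPM of the later over the earlier stage for each subunit gene that reached 20 CPM in either library, in cKO (filled circles) and parental cells (open squares), by complex and encoding genome, with the median as a black bar, 0 as a solid line and 1.5-fold as dashed lines. At the step to day 3, nuclear complex II genes have medians of 0.38 in both genotypes and nuclear complex IV genes −0.63 in cKO and −0.49 in parental cells.

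The nuclear genes split by complex at this step. Their overall median was −0.06 in cKO and −0.13 in parental cells, beside 0.04 and 0.09 for all genes. Complex IV summed to −0.45 and −0.33 and complex III to −0.35 and −0.20, whereas complex II summed to 0.38 and 0.36. Complex I and V sums lay between, at −0.06 and −0.08 for complex I and −0.02 and −0.14 for complex V. In all, 8 nuclear members of cKO and 1 of parental cells rose by at least 1.5-fold (18.5% and 16.0% of all genes), and 15 and 6 fell (20.2% and 15.7% of all genes), so the falls were at or below the share of all genes. At 2-fold, nuclear and mitochondrial members were counted together. Then 4 were called in cKO cells, mt-Co1 and mt-Nd6 among them, and 1 in parental cells, where 18.3% and 14.2% of all genes were.

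Among those that fell in both genotypes, Cox6c had 516.9 CPM in cKO and 479.5 CPM in parental day 3 cells, against 1124 and 759 CPM in ESC, with ratios of −1.12 and −0.66. Cox6b1, the widely expressed isoform of subunit 6B, fell by 0.82 and 0.70 on the log2 scale, Cox7b by 0.83 and 0.64, and Uqcr10, a small subunit of complex III, by 0.72 and 0.64. Cox6b2 fell by 0.96 and 1.29, and in parental cells (19.0 CPM at day 3) it was compared only through its ESC level. The falls counted in cKO cells include Cox7a1, with 4.5 CPM at day 3 against 20.1 CPM in ESC, which was compared only through ESC. Both had to differ. The gene that rose in both genotypes was Sdhd, a membrane anchor of complex II, with 164.6 CPM in cKO and 135 CPM in parental day 3 cells against 103 and 86.3 CPM in ESC (0.68 and 0.65). Sdhb, the iron-sulphur subunit of complex II, gave 0.69 and 0.54, and Sdha, its catalytic subunit, gave −0.15 and −0.05.

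Short transcripts and long ones parted at the same step. The 40 nuclear members compared in cKO cells with a median coding transcript under 700 bases had a median log2 ratio of −0.35, against 0.14 for the 36 longer ones, and in parental cells the values were −0.25 and 0.08. Over the members, Spearman's rho of the ratio with transcript length was 0.57 in cKO (76 genes) and 0.42 in parental cells (75 genes), and over the other genes it was −0.20 and −0.12. Cytosolic ribosomal proteins (82 genes) had the sign of the subunits, with 0.32 and 0.11 at this step. In the genotype comparison of ESC the short members had 0.16 and the longer −0.03, and at day 6 these were 0.25 and 0.03, with rho of −0.42 and −0.37 over the subunits and −0.32 and −0.12 over the cytosolic ribosomal proteins. Genes of 1 library share its depth and chemistry, so these correlations are descriptions, and the part of transcript length or library chemistry in the ratios of the small complex III, IV and V subunits was not tested.

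From day 3 to day 6 the scale of the values decided the sign of the sets. The nuclear median was 0.12 in cKO and 0.09 in parental cells, beside 0.19 and 0.12 for all genes. It thus lay below that of all genes in both genotypes. With TMM factors the nuclear median turned to −0.16 and −0.14, and the median of all genes to −0.12 and −0.15. These factors scale all genes of a library alike and cannot move members relative to the same genes. The 20 CPM limit was applied again after scaling, so the genes compared differ between the scales. The place of members relative to all genes is therefore read from CPM alone. Of the nuclear members, 12 in cKO and 5 in parental cells were at least 1.5-fold higher at day 6 (33.6% and 26.0% of all genes), and 1 in each was lower (17.0% and 12.5% of all genes). At 2-fold, again with nuclear and mitochondrial members together, 4 in cKO and 2 in parental cells were called, mt-Nd6 among them in both genotypes. Of all genes, 27.4% and 18.6% were called.

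The 1 lower member in both genotypes was Atp5g1, with 518.8 CPM in cKO and 551.4 CPM in parental cells at day 6, against 852.9 and 905.3 CPM at day 3 (−0.72 in both). Among the higher members, Cox6b2 gave 1.69 in cKO and 1.58 in parental cells, Ndufa3 gave 1.07 and 0.72, and Ndufv3, an accessory subunit of the electron-input module of complex I, gave 0.71 and 0.76. Cox7a1 stood at 30.01 CPM in cKO cells at day 6 against 4.5 CPM at day 3, a ratio of 2.75 (2.59 to 2.91), and at 15.04 against 4.1 CPM in parental cells (1.87, 1.69 to 2.06), below the 20 CPM limit. Cox7a1 in cKO cells, and Cox6b2 in parental cells (19.0 CPM at day 3), were compared only through day 6 and so had to differ. Cox6a1 had 463.9 CPM in cKO cells at day 6 against 232 CPM at day 3, and 292 CPM against 220.4 CPM in parental cells, with log2 ratios of 0.999 and 0.41.

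Of the mitochondrial genes, mt-Nd6, the only subunit gene encoded on the light strand, moved apart from the rest. It had 51.0, 25.3 and 86.3 CPM in cKO ESC, day 3 and day 6 cells, and 36.8, 26.0 and 109 CPM in parental cells. Its ratio of day 6 over day 3 was 1.77 (1.70 to 1.84) in cKO and 2.07 (1.99 to 2.14) in parental cells. The mt-Nd3 gene went the other way in both genotypes, with −0.69 and −0.77. For mt-Cytb the genotypes parted, with 0.28 in cKO and −0.22 in parental cells.

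Isoform genes of the same subunit shifted against each other across the stages. Of the UMIs of the 3 genes for subunit c of ATP synthase, Atp5g1 held 48.8%, 44.0% and 34.0% in cKO ESC, day 3 and day 6 cells, and 56.6%, 48.1% and 32.0% in parental cells. Atp5g2 held 29.1%, 35.5% and 42.8% in cKO and 27.6%, 33.7% and 46.3% in parental cells. The exact binomial interval was widest for Atp5g1 in cKO ESC, at 48.4% to 49.2%, and the 3 genes make the same mature protein. Cox6b2 held 8.55%, 7.85% and 15.2% of the UMIs of the 6B pair in cKO cells and 7.46%, 5.08% and 11.2% in parental cells. Cox7a1 held 2.67%, 0.797% and 4.76% of the UMIs of Cox7a1 and Cox7a2 in cKO cells, and 1.56%, 0.790% and 3.21% in parental cells. The lung isoform Cox4i2 was highest, of the 6 libraries, at 6.3 CPM in parental cells at day 6, against 1.8 CPM in cKO cells.

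Another 7 nuclear members never reached 20 CPM and were not compared. They are Cox4i2, Atp5s (up to 13.2 CPM), the germline or muscle isoforms Cox6a2, Cox7b2, Cox8b and Cox8c (each under 1 CPM), and the second gene entry named Atp5o, which had 0 UMIs in every library. Cox8b had 1 UMI in cKO ESC (0.026 CPM) and 0 in every other library.

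Cells fell into separate groups by their share of mitochondrial UMIs. Cells under 1%, a limit set after these values were seen, made up 11.7%, 15.7% and 31.9% of cKO ESC, day 3 and day 6 cells, and 7.52%, 20.9% and 21.4% of parental cells. Between 9 and 142 cells per library lay near the limit, from 0.5% to 1.5%. At the ESC stage and day 6 such cells were shallow, with medians of 4905 to 6452 UMIs against 44356 to 77836 UMIs in the other cells. At day 3 they were deep, with medians of 47891 UMIs in cKO and 44554 UMIs in parental cells. Among cells with at least 20000 UMIs they made up 13.6% and 15.6% at day 3 of cKO and parental cells, against 2.18% and 0.5% in cKO and parental ESC and 4.13% and 2.81% in cKO and parental cells at day 6. The share under 1% also differed by cell class. At day 3 it was 41.7% in cKO and 45.1% in parental cells with epithelial markers, against 7.95% and 15.2% with pluripotency markers. At day 6 it was 29.8% and 30.9% with epithelial markers and 21.1% and 23.7% with somite markers. Parental cells with neural markers had 5.53%. The part of the class mixture in the shares of cells under 1% was not tested.

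**Figure D5:**
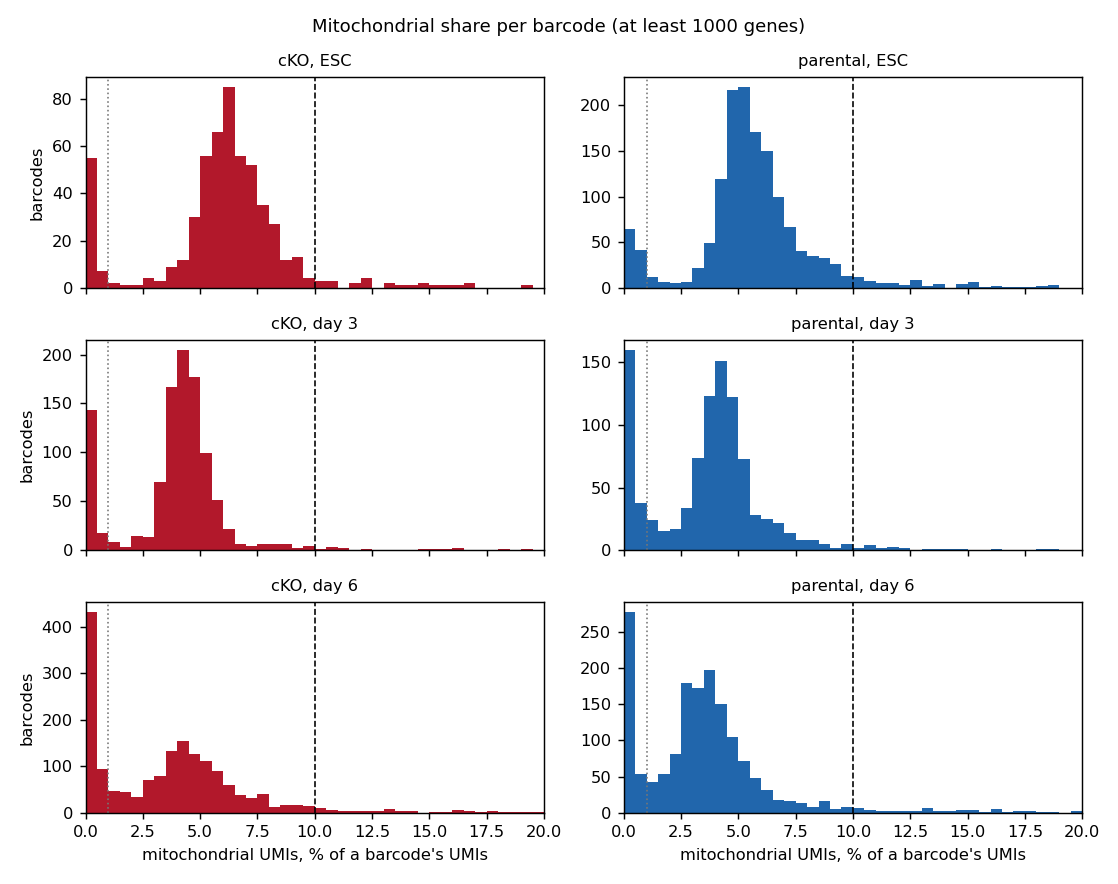
Number of barcodes with at least 1000 genes by their share of mitochondrial UMIs in bins of 0.5%, for cKO (left) and parental (right) at the 3 stages, with the 10% ceiling as a dashed line and 1% as a dotted line; barcodes over 20% are not drawn. Each library has 1 peak between 2.5% and 7% and another under 1%, which holds 161 cKO and 198 parental cells at day 3.

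In these cells the nuclear subunit genes did not follow the mitochondrial ones. At day 3 the mitochondrial sum, which defined the cells, was 1782 CPM in cKO and 2470 CPM in parental cells under 1%, against 43929 and 42641 CPM in the others. The nuclear sum was 24301 and 24632 CPM in cells under 1%, against 26407 and 25295 CPM in the others, or log2 ratios of −0.12 and −0.04. Of the 76 nuclear members compared in cKO cells, 3 were at least 1.5-fold higher and 3 lower, beside 14.7% and 16.7% of the other genes. In parental cells 2 of 75 were higher and 3 lower, beside 12.9% and 10.6%. Over all stages the nuclear log2 ratio ran from −0.12 in cKO cells at day 3 to 0.15 in parental ESC.

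Genes of the mitochondrial stress response list (12 genes) went different ways between these cells at day 3. Of the other genes, 14.7% in cKO and 12.9% in parental cells were at least 1.5-fold higher in cells under 1%, and 16.7% and 10.6% lower. Ddit3, the stress-induced factor CHOP, had 187 CPM in cKO and 152 CPM in parental cells under 1%, against 10.2 and 12.1 CPM in the others (log2 4.19 and 3.64). Atf5, a factor of the mitochondrial unfolded protein response, gave 3.82 and 3.02, Trib3 gave 3.38 and 2.86, and Asns, for asparagine synthetase, gave 1.81 and 1.76. Atf4 gave 1.56 and 1.30, and Chac1 2.99 and 2.23. Hspd1, the mitochondrial chaperonin, was lower, at −1.05 and −0.74. Within 1.5-fold stayed Hspe1 (−0.50 and −0.27), Hspa9 (0.52 and 0.47), Lonp1 (0.28 and 0.14) and Clpp (0.11 and 0.24). Fgf21 had at most 8 UMIs in any of these groups of cells. In ESC under 1%, Ddit3 gave 0.41 (−0.41 to 1.12) in cKO, from 16 UMIs, and 1.23 (0.73 to 1.70) in parental cells. At day 6 it gave 0.84 (0.66 to 1.02) in cKO and 3.17 (2.98 to 3.36) in parental cells, and Trib3 gave 1.21 and 2.38. The nuclear transcript Malat1, chosen after its values were seen, gave 1.94 and 1.97 at day 3 and −2.96 and −1.42 in ESC. The part of depth, of cell class and of these genes in the low mitochondrial share, and of cell class in these ratios, was not tested.

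Related gene lists gave the surroundings of the subunits, with the same call at 1.5-fold. Mitochondrial ribosomal proteins had medians of 0.38 in cKO and 0.24 in parental cells from ESC to day 3, with 25 and 9 of 77 compared higher, where 18.5% and 16.0% of all genes were, and 0 lower. From day 3 to day 6 their medians were −0.36 and −0.22, with 15 and 10 of 77 lower, near the 17.0% and 12.5% of all genes. Of the assembly factors of complex I, 6 of 11 compared in cKO and 3 of 10 in parental cells were higher at day 3 than in ESC, against the same 18.5% and 16.0% of all genes. Factors of mitochondrial DNA and RNA had 6 of 13 lower in cKO and 3 of 14 in parental cells at day 6 over day 3, where 17.0% and 12.5% of all genes were lower.

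At day 6, 5 of 14 glycolysis genes were lower and 2 higher in cKO than in parental cells, where 10.7% of all genes were lower and 12.1% higher, and the list's median was −0.47. Slc16a3, the lactate exporter MCT4, had 95.7 CPM against 201.5 CPM. Slc2a3, the glucose transporter GLUT3, went the other way, with 913 CPM in cKO and 387 CPM in parental cells. Pdk1, a kinase that holds back pyruvate dehydrogenase, had 17.02 CPM against 36.8 CPM, the 1 call at day 6 among 20 genes of the citric acid cycle list. Pdk1 was compared only through its level in parental cells, so it had to differ. The day 6 libraries differed in their mixture of cells, and none of these lists was compared within classes. Cytosolic ribosomal proteins, which are short and abundant like many subunit genes, had a median of −0.17 at day 6 with 65 of 82 below 0, against 0.11 for the nuclear subunits.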

How the data were processed

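The deposited values are UMI counts per gene and barcode, made by the authors with Cell Ranger 3.1.0 on the mm10 build, per the file headers and the submitters' processing notes. Cells were droplets from the 10x Genomics 5′ kit, with 1 library in each of 6 groups. Of 11046 barcodes, the 7096 with 1000 genes or more and no more than 10% of UMIs from mitochondrial genes were kept, and their counts were summed per library and given per 1000000 UMIs (CPM). Scrublet (scanpy 1.11.5) marked 30 barcodes (0.423%), too few to count as working, so none was removed.

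Ratios carry exact 95% binomial intervals conditional on the summed counts, and levels exact Poisson intervals, both for counting error only. A gene was called at 1.5-fold where either library reached 20 CPM. No test was made, since 1 library per group leaves no replicate error. The ratio script was checked on simulated counts. Alternatives were TMM (edgeR 4.0.16, R 4.3.3) and median-of-ratios factors, equal weight per cell, other cell filters, CPM limits and folds, and members left out. Stretches of 91 bases shared with other genes were counted in GENCODE transcripts. Python 3.11.15, numpy 2.4.6, pandas 2.3.3, scipy 1.17.1 and matplotlib 3.10.9 were used.

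The members and gene lists were chosen with earlier results of these data known. Genes named were all mitochondrial members, up to 3 nuclear members per complex with the greatest absolute log2 ratio (1 CPM added) in each genotype comparison and 1 in each stage comparison, the isoform families, and up to 2 genes of each other list by the same rule. Ndufs4 and Ndufb4 (promoters), Sdha to Sdhd as the whole of complex II, members called in both genotypes, Atp5h, the genes never compared and the stress genes of cells under 1% were named after their values were seen.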

Additional observations from a re-analysis of the deposited data

Results flagged for a closer look

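Some values had opposite signs in a pair of genotypes or stages, and the difference was not tested in any of them, since each group is 1 library. From day 3 to day 6 mt-Cytb, the mitochondrial gene of complex III, gave a log2 ratio of 0.28 in cKO and −0.22 in parental cells. Atp5d, the delta subunit of ATP synthase, gave 0.29 in cKO and −0.27 in parental cells from the ESC stage to day 3. Of the cKO over parental ratios, Ndufb10 stood at −0.42 in ESC and 0.26 at day 3, and Ndufb2 at −0.26 at day 3 and 0.47 at day 6. The ratio of mt-Atp8 was 0.52 in ESC, −0.27 at day 3 and −0.29 at day 6, and that of mt-Nd6 was 0.47 in ESC and −0.33 at day 6.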

How the results depend on the processing

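With TMM factors, the nuclear median and sum of day 6 over day 3 turned to −0.16 and −0.13 in cKO and −0.14 and −0.19 in parental cells, and with median-of-ratios factors to −0.14 and −0.12, and −0.15 and −0.20. The same factors gave a mitochondrial sum of −0.14 and −0.13 in cKO cells for that step, and equal weight per cell gave −0.22. At day 3, cKO over parental, both scalings gave 0.19 for the nuclear median, 0.16 for the nuclear sum and 0.18 for the mitochondrial sum. A ceiling of 5% turned the mitochondrial sum of cKO over parental ESC to −0.15, and gave −0.084 and 18 calls for day 3 over ESC in cKO. That ceiling kept 124 of 530 cKO and 541 of 1396 parental ESC. Cells of 20000 to 60000 UMIs gave a nuclear median of 0.12 for day 3 cKO over parental, mitochondrial sums of −1.09 in cKO and −0.98 in parental cells with 20 parental calls for day 3 over ESC, and, for day 6 over day 3, mitochondrial sums of 0.71 in cKO and 0.39 in parental cells, with a parental nuclear median of 0.19 and sum of 0.13. Without members on chromosomes 1, 6, 8 and 11 the nuclear sum of day 3 cKO over parental was 0.12. Calls between ESC genotypes were 3 with equal weight per cell and 3 with no ceiling. At day 3 they were 2 with 5 CPM and 5 with no minimum, which gave 15 for day 6 over day 3 in parental cells. A 2-fold limit gave 0 calls in each genotype comparison, 4 in cKO and 1 in parental cells for day 3 over ESC, and 4 and 2 for day 6 over day 3. Apart from the shifts that the scalings make by construction, the cause was not tested. No paired analysis was possible because each group has 1 library, and no replicate could be left out. Leaving out cells under 1% mitochondrial UMIs, and members with over 50% shared stretches in transcripts, were added after seeing the data, the second in place of a genome search that was not run.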
